A study of Mus musculus with 42 samples.

Results

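The genes described here are 41 that mark the lining of blood and lymph vessels, of 18194 genes that could be named on the arrays. They were chosen by function and taken by symbol, but with earlier measured values of these data known, among them that Cdh5 and Emcn separate the knockout-labelled cultures, that Cldn5 falls with LPS in wild-type cultures, that Ldb2 and Ramp3 were among the largest treatment falls, and that many endothelial genes are lower in knockout-labelled than in wild-type cultures. The untreated genotype contrast and the contrast between sets of cultures are therefore given as description only. All 41 were present, on 72 probe sets of 1 gene each, and no filter on low values was applied. They comprised 4 receptors of the VEGF and angiopoietin families, 10 junction and adhesion genes, 7 other surface or secreted genes of blood endothelium, 4 peptide receptors or their partners, 7 transcription regulators, 6 lymphatic or sinusoidal genes and 3 genes of activated endothelium and its storage granules.

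Messenger RNA was measured on 42 arrays of cultured synovial fibroblasts, which build and line the soft tissue of joints. All cultures came from joints of female BALB/c mice with arthritis raised by cartilage proteoglycan in DDA adjuvant, and the mice either were wild-type or lacked Tnfaip6, which encodes TSG-6, a secreted protein that binds hyaluronan. The cells were released with enzymes, grown for up to 6 passages in 10% serum, held overnight in 0.5% serum and then treated for 12 h. There were 5 untreated wild-type cultures and 2 each with the inflammatory cytokine TNFa (5 ng/ml), bacterial lipopolysaccharide (LPS, 200 ng/ml), recombinant mouse TSG-6 (120 ug/ml), hyaluronan (HA, 24 ug/ml) or TSG-6 with HA at the same doses. The knockout-labelled cultures were 8 untreated, 3 with TSG-6 and 4 with each other treatment. Nothing in the labels says whether cultures of a group came from different mice or were sorted before plating, so p-values measure the spread between cultures, which may be partly technical.

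Blood endothelium lines vessels with cells joined by VE-cadherin (Cdh5), PECAM-1 and claudin-5, kept alive by VEGF and angiopoietin signals, and specified by ETS-family factors such as ERG together with SOX factors. Lymphatic endothelium shares most of these genes and adds PROX1, VEGFR-3 (Flt4) and the hyaluronan receptor LYVE-1, while sinusoidal endothelium carries the scavenger receptors stabilin-1 and stabilin-2. Inflamed endothelium shows P-selectin and E-selectin on its surface, which catch passing leukocytes. Fibroblasts are not a usual source of most of these transcripts.

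Promoter windows of 300 bases (250 before to 50 after the gene start) were listed in RefSeq for 24 of the 41 genes on build GRCm38.p6. Those below belong to genes on which the results turn, namely the marker that varied most over the arrays (Emcn), a receptor high in every wild-type array (Tie1), the gene with the largest LPS fall (Cldn5) and both selectins. Windows are written in the direction of transcription, and capitals mark AGGAAG or its reverse complement CTTCCT, a core that ETS factors can bind.
Emcn, chr3:137340828-137341127, plus strand: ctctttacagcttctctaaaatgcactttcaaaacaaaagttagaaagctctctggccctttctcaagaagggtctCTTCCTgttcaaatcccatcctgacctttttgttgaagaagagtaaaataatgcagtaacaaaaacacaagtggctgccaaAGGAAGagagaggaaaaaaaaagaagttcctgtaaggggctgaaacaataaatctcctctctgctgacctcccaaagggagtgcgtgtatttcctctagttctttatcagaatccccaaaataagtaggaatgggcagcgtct
Tie1, chr4:118489800-118490099, minus strand: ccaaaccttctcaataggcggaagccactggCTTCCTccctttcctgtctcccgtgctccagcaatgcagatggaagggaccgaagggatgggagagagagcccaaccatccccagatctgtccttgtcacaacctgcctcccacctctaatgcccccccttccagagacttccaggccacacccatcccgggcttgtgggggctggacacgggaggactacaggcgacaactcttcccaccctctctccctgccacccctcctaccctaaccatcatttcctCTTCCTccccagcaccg
Cldn5, chr16:18776597-18776896, plus strand: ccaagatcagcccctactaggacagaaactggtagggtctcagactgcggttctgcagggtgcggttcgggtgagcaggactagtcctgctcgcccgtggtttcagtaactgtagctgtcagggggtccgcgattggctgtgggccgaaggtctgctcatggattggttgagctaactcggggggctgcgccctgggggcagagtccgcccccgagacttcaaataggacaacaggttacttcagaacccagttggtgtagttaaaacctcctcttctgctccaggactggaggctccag
Selp, chr1:164115014-164115313, plus strand: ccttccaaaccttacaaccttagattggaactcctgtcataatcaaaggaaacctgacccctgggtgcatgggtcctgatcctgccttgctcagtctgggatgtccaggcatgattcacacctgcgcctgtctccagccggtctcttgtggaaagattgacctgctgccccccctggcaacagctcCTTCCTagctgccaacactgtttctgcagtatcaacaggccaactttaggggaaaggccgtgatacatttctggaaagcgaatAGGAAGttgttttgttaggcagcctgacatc
Sele, chr1:164047984-164048283, plus strand: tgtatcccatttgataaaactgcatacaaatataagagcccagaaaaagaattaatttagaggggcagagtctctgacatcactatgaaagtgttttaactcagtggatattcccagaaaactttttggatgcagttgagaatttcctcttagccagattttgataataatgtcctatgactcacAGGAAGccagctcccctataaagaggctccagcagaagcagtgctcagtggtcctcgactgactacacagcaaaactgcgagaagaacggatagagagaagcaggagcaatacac
On either strand AGGAAG occurred in 13 of the 24 windows (54.2%), against 35.1% of the 27025 windows of all genes, taking the first listed per gene. There were 2 matches each for Emcn, Tie1 and Selp, 1 for Sele and 0 for Cldn5. AACAAT, a core that SOX factors can bind, occurred in 5 of 24 windows (20.8%), against 10.9% of all windows. These are matches of letters in a short window and do not show binding.

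The deposited values are log2 differences from each probe set's median over the 42 arrays, so they carry no absolute level, and a value of 0 is the middle array. Because 27 of the 42 arrays were knockout-labelled, knockout-labelled values lie near 0 by construction for any gene that the genotypes separate. Tnfaip6 did not check the labels, as it was 0.26 ± 0.16 higher (log2, SE) in untreated knockout-labelled than wild-type cultures (limma, adjusted p = 0.22), and whether its probe sets lie in the deleted part is unknown here. The arrays of each genotype formed sets a and b, which are no labels of the study and were found from probe sets outside the gene lists. Wild-type set a (8 arrays) held untreated replicates 1 to 3 and replicate 1 of every treatment, and set b (7 arrays) the others. Knockout-labelled set a (14 arrays) held untreated replicates 1 to 4 and treated replicates 1 and 2, and set b (13 arrays) the others, with 1 TSG-6 array. A high 18S ribosomal signal marked 15 arrays, 5 of them wild-type, all in set b: untreated replicate 5 and replicate 2 of TNFa, LPS, HA and TSG-6 with HA. Array medians lay between -0.0239 and 0.0252, and no pair of arrays was identical.

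In the untreated cultures 37 of the 41 genes were lower in the knockout-labelled group in the limma fit (adjusted p below 0.05), against 16.3% of all genes lower and 37.6% called in either direction. The median log2 difference was -4.36 over the 41 and 0.027 over all genes. This contrast helped to choose the genes, and nothing is read from the count. Every one of the 15 wild-type arrays lay above every one of the 27 knockout-labelled arrays, whatever the treatment, for 34 of the 41, against 4.55% of all genes. The other 7 were Flt1, Gja4, Nos3, Ldb2, Prox1, Mmrn1 and Vwf. In bulk RNA, fewer endothelial cells and less of these transcripts per cell cannot be told apart.

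**Figure D1:**
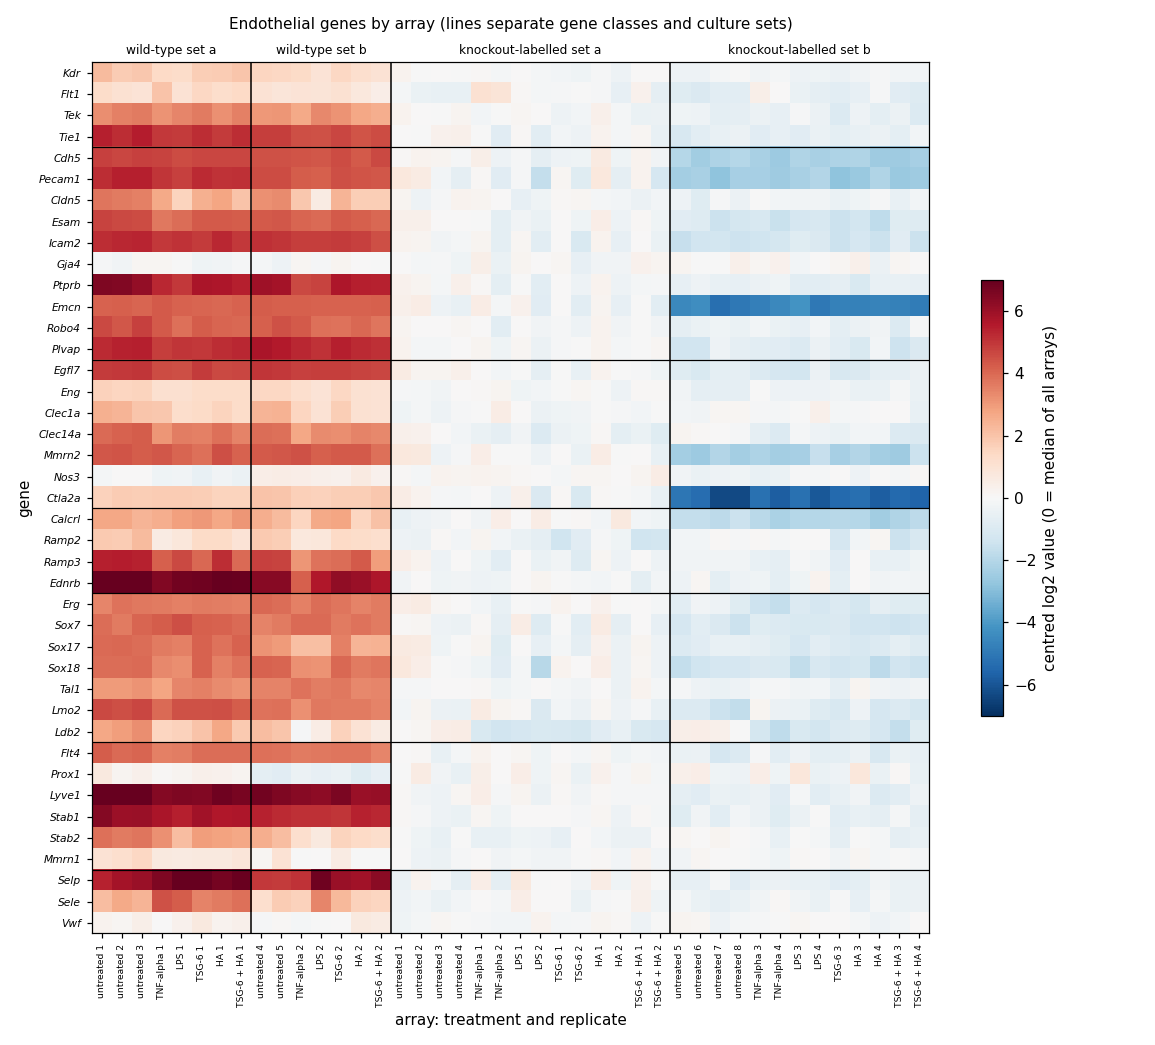
Centred log2 value (colour, 0 = median of all 42 arrays) of the 41 genes (rows, by class) in every array (columns, by genotype label, culture set and treatment). Wild-type columns are red in most rows, and knockout-labelled set b is deep blue for Emcn and Ctla2a; Gja4, Nos3, Prox1 and Vwf stay pale throughout.

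Among the receptors, Tie1, the orphan partner of the angiopoietin receptor, ranged from 4.40 to 5.49 (median 4.89) in wild-type arrays and from -1.10 to 0.35 (median -0.43) in knockout-labelled arrays. Tek, the angiopoietin receptor itself, ranged from 2.55 to 3.62 and from -0.95 to 0.38. Kdr, the main VEGF receptor of blood vessels, was nearer, at 0.94 to 2.20 against -0.41 to 0.25. Flt1, a VEGF receptor that can act as a decoy, overlapped, with wild-type arrays at 0.46 to 1.99 and knockout-labelled arrays reaching 1.07. The receptors thus spread from a gap of 4.05 between the nearest arrays of the genotypes to an overlap of 0.61.

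The junction and adhesion genes had the widest separation of any blood class, with a median difference of genotype medians of 5.12 over 10 genes. Cdh5 lay at 4.31 to 4.81 (median 4.63) in wild-type arrays and -2.56 to 0.64 (median -0.65) in knockout-labelled arrays. Pecam1, an adhesion molecule of endothelium and blood cells, lay at 4.20 to 5.44 against -2.80 to 0.73. Emcn, the sialomucin endomucin, was the steadiest of the separated genes in wild-type arrays, at 4.04 to 4.29 across all treatments. Esam, Icam2, Ptprb (a phosphatase that acts on Tie receptors and VE-cadherin), Robo4 and Plvap (the diaphragm protein of fenestrated vessels) differed between genotype medians by 4.45 to 6.02. Gja4, an arterial gap junction gene, did not separate, at -0.33 to 0.18 against -0.55 to 0.39.

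The secreted and surface genes Egfl7 and Mmrn2 differed by 5.25 and 4.82 between genotype medians, and Eng, a TGF-beta co-receptor also made by fibroblasts, by 1.51. Nos3, the endothelial nitric oxide synthase, differed by 0.00, at -0.51 to 0.64 against -0.54 to 0.50. All 7 transcription regulators differed by 2.88 to 4.79, and all but Ldb2 did so without overlap. Erg lay at 3.43 to 4.01 (median 3.63) in wild-type arrays and -1.67 to 0.58 (median -0.23) in knockout-labelled arrays. Among the peptide receptors, Ednrb, the endothelin B receptor, lay at 4.18 to 7.37 against -0.71 to 0.22, and Calcrl, the receptor that pairs with RAMP proteins to bind adrenomedullin, at 1.49 to 3.11 against -2.44 to 0.67.

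The lymphatic and sinusoidal genes did not behave as one. Lyve1 lay at 6.02 to 7.12 (median 6.55) in wild-type arrays and -0.96 to 0.49 (median -0.25) in knockout-labelled arrays, and Stab1 at 4.99 to 6.40 against -0.86 to 0.16. Flt4 lay at 3.40 to 4.22 against -1.20 to 0.22. Prox1, the factor that defines lymphatic identity, overlapped fully, at -0.85 to 0.71 against -0.54 to 0.82, as did Mmrn1 in part, at -0.04 to 1.47 against -0.39 to 0.27. Lyve1 and Stab1 are also made by macrophages. The mean of 16 macrophage genes ranged from -0.10 to 0.18 in wild-type arrays, from -0.28 to 0.21 in knockout-labelled set a and from -0.20 to 0.24 in set b. In the untreated contrast, 1 macrophage gene was higher and 1 lower, below the 37.6% of all genes called there. Lyz2, a macrophage gene named after its values were seen, lay at 0.40 to 1.86 in wild-type arrays and -1.49 to 0.18 in knockout-labelled arrays. The ranges of the other macrophage genes overlapped between genotypes. A macrophage part in the values of Lyve1 and Stab1 was not tested.

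Of the activation genes, Selp (P-selectin) lay at 4.89 to 7.31 (median 6.06) in wild-type arrays and -0.79 to 0.71 (median -0.42) in knockout-labelled arrays. Sele (E-selectin) lay at 1.19 to 4.48 against -0.65 to 0.46. Vwf, the clotting protein stored with P-selectin in Weibel-Palade bodies, overlapped, at -0.12 to 0.71 against -0.37 to 0.22. A centred value cannot say whether Vwf, Prox1, Nos3 and Gja4 were high in both genotypes or at background in both.

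The knockout-labelled cultures themselves differed by culture set. Every array of set a lay above every array of set b for 7 of the 41 genes, against 0.335% of all genes, and these were Cdh5, Pecam1, Esam, Emcn, Mmrn2, Ctla2a and Calcrl. Emcn in untreated set a arrays was 0.35, 0.53, -0.38 and -0.51, and in untreated set b arrays -4.52, -4.36, -5.27 and -4.98. Ctla2a, a cathepsin inhibitor gene, was 0.54, 0.27, -0.08 and -0.11 against -5.05, -5.34, -6.30 and -6.31. Cdh5 was 0.08, 0.22, 0.18 and -0.08 against -1.98, -2.45, -2.14 and -1.99. For these 3 genes every set a array also lay above every set b array within each treated group. Ctla2b, a near copy of Ctla2a, was 1 of the 5 probe sets that defined the knockout-labelled sets, so the gap of Ctla2a is not independent of them.

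Across the 41 genes, the untreated set a mean exceeded the set b mean by more than 1 for 11, against 0.478% of all genes. These were the 7 above with Icam2, Egfl7, Sox18 and Lmo2. By class the median difference was 1.10 for the junction genes, 0.91 for the transcription regulators, 0.52 for the VEGF and angiopoietin receptors, 0.09 for the lymphatic genes and 0.13 for the activation genes. No lymphatic or activation gene differed by more than 0.63 between the knockout-labelled sets. Lyve1 lay at medians of -0.06 in set a and -0.51 in set b, both over 6 units below the wild-type median. Whether set a or set b reached the lower limit of a probe set cannot be read from centred values.

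**Figure D2:**
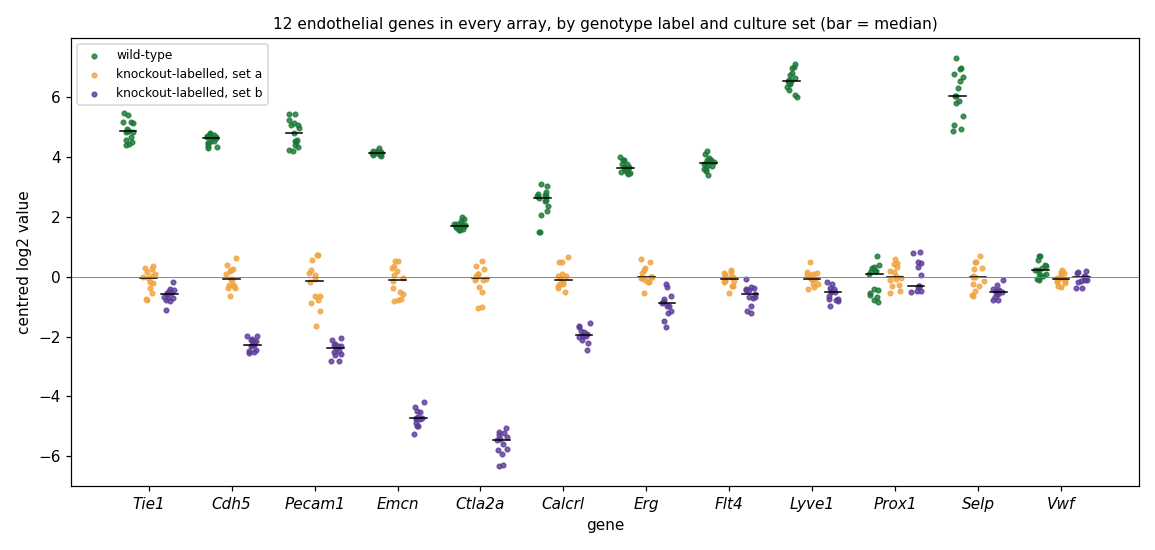
Centred log2 value (y axis) of 12 genes (x axis), with 1 point per array and a bar at the median, for the 15 wild-type arrays and the 14 set a and 13 set b knockout-labelled arrays. Emcn and Ctla2a drop by more than 4 between the knockout-labelled sets, Flt4, Lyve1 and Selp by under 1, and Prox1 and Vwf overlap in all 3 columns.

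Over the 41 genes together the wild-type sets differed less. Their untreated means (set a minus set b) differed by a median of 0.30, against 0.50 for the knockout-labelled sets. The lymphatic genes (median 0.75 against 0.09), activation genes (0.83 against 0.13) and peptide receptors (0.44 against 0.25) went the other way. In the other classes the wild-type median was the smaller. The wild-type gap was largest for Stab2 (1.41) and Prox1 (1.16). Prox1 was 0.71, 0.20 and 0.38 in untreated set a arrays and -0.68 and -0.79 in untreated set b arrays. In treated wild-type arrays it was 0.10 to 0.34 in set a and -0.85 to -0.41 in set b, without overlap. The Prox1 probe set used correlated at -0.669 with the ribosomal signal over all arrays. Among wild-type arrays that signal was high in set b alone, though not in untreated replicate 4 (Prox1 -0.68). The other probe sets of Prox1 had ranges of 0.755 and 0.715 over all arrays, less than the gap of 1.16. Whether this gap reflects the Prox1 transcript was not tested.

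The genes outside the 41 whose values followed Cdh5 most closely over the 42 arrays were F11r (a junctional adhesion molecule), Myct1, Gimap6, Adgrf5, Hoxd9, Hoxd8, Pdlim1, Slco4a1, Nrep and Hoxd3os1, with Pearson r from 0.978 to 0.995. With group means removed they were Ctla2b, Adgrf5, Cd93, 4930447F24Rik, Hoxd9, F11r, Pcbd1, Myct1, Gimap6 and Morc1, with r from 0.944 to 0.965. The arrays share the genotype gap and, with group means removed, the culture sets. Ctla2b and 4930447F24Rik were also among the 5 probe sets that defined the knockout-labelled sets, so their r is not independent of those sets. Among the 41, Emcn (0.975), Ctla2a (0.969), Mmrn2 (0.954) and Pecam1 (0.931) had the highest r with Cdh5 after group means were removed, and Ramp2 (-0.241) and Gja4 (-0.187) the lowest. In wild-type arrays alone r was -0.346 for Emcn, -0.451 for Ctla2a, -0.103 for Mmrn2 and 0.875 for Pecam1. In knockout-labelled arrays alone it was 0.979, 0.974, 0.96 and 0.941. Ramp2 and Gja4 gave 0.21 and -0.023 in wild-type arrays, and -0.27 and -0.203 in knockout-labelled arrays.

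Treatment contrasts were tested over all 18194 genes against the untreated cultures of the same genotype, which all 5 treatments of a genotype share. The falls of Cldn5, Ldb2 and Ramp3 were known when the genes were chosen, so their p-values and the counts that hold them are no independent support. In wild-type cultures TNFa left 7 of the 41 lower and 0 higher, against 2.56% of all genes called in either direction and 1.15% lower (limma, adjusted p below 0.05). LPS left 6 lower and 1 higher, against 1.19% of all genes in either direction, 0.456% lower and 0.737% higher. TSG-6 with HA left 4 lower (0.802% of all genes in either direction, 0.434% lower), TSG-6 alone 2 lower (0.429% and 0.154%) and HA alone 2 lower (0.132% and 0.0385%). The median log2 difference over the 41 was -0.40 with TNFa, -0.43 with LPS, -0.17 with TSG-6, -0.28 with HA and -0.31 with TSG-6 and HA, while the median over all genes lay between -0.004 and 0.007. In knockout-labelled cultures, where 34 of the genes lay below every wild-type array, TNFa left 3 lower and 1 higher, against 14% of all genes in either direction, 7.32% lower and 6.71% higher. LPS left 1 lower (1.79% in either direction, 0.819% lower), TSG-6 2 lower (4.75% and 2.65%), HA 1 lower (0.643% and 0.214%) and TSG-6 with HA 3 lower (9.94% and 6.61%). The knockout-labelled share was near or below that of all genes for TNFa, LPS, TSG-6 and TSG-6 with HA, and these counts are no result about the 41 genes.

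Without the high-18S arrays the wild-type counts were 3 with TNFa (1 higher, 2 lower) and 4 with LPS (1 higher, 3 lower). For TSG-6, HA and TSG-6 with HA they were 3, 0 and 3, all lower. With the culture set as a block the counts, in the same order of treatments, were 9, 11, 5, 3 and 8. Of these 1, 2, 1, 0 and 1 were higher. Quantile normalization between arrays left 0, 1 (Cldn5), 0, 0 and 0, and its cause was not tested. Each wild-type treated group had 2 arrays, of which the second carried the high 18S signal for every treatment but TSG-6 alone.

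**Figure D3:**
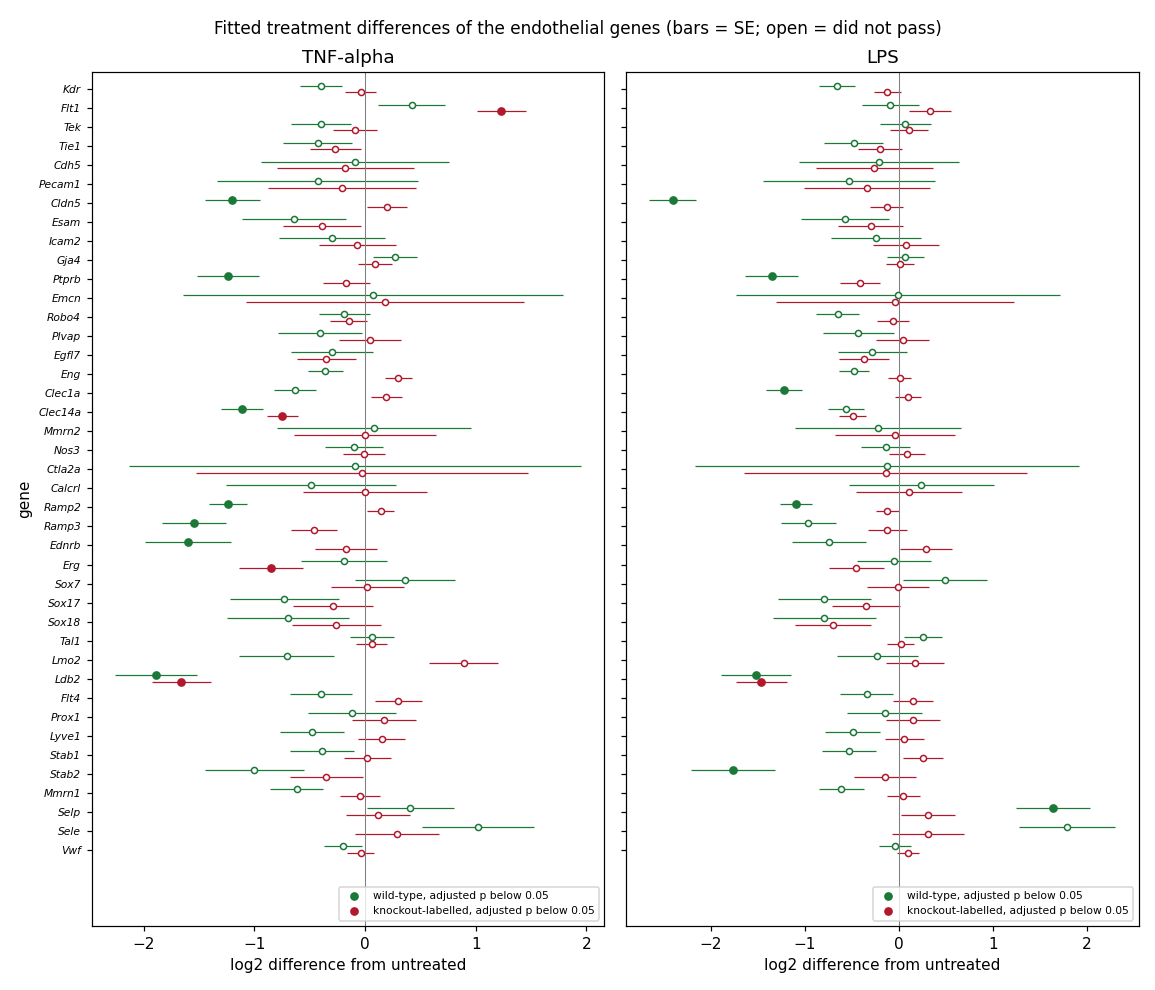
Fitted log2 difference from untreated cultures (x axis, bars = SE) of the 41 genes (rows) after TNFa (left) and LPS (right), in wild-type and knockout-labelled cultures, with filled points for adjusted p below 0.05. Cldn5 stands furthest left after LPS in wild-type cultures at -2.40, Selp stands at 1.64, and Ldb2 is left of -1.4 in both genotypes.

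None of the VEGF and angiopoietin receptors passed in wild-type cultures. Kdr in the untreated arrays was 2.20, 1.80, 1.87, 1.48 and 1.47, and with LPS 1.26 and 0.94, a difference of -0.66 ± 0.19 (adjusted p = 0.0853), which passed with the culture set as a block (-0.62, adjusted p = 0.00257). Tek and Tie1 did not pass in any treatment contrast of either genotype. Flt1 was the 1 receptor that changed, in knockout-labelled cultures with TNFa. Its untreated arrays had a median of -0.63 and a highest value of -0.13, and the TNFa arrays were 1.07, 0.90, 0.41 and 0.04, all above. The difference was 1.23 ± 0.22 (adjusted p = 8.31e-05, 4 of 4 arrays). In wild-type cultures Flt1 was 1.99 and 0.94 with TNFa against 0.87 to 1.31 untreated, which overlapped. The other 3 probe sets of Flt1 had the same sign, between 0.13 and 0.45, and did not pass.

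Claudin-5, the barrier protein of endothelial tight junctions, was the member that passed in all 5 wild-type contrasts. Cldn5 in untreated wild-type arrays was 3.75, 3.61, 3.52, 3.21 and 3.33. It was 1.57 and 0.59 with LPS, 2.66 and 1.91 with TNFa, 2.47 and 2.39 with TSG-6, 2.77 and 1.72 with HA, and 1.99 and 1.70 with TSG-6 and HA. All 10 treated arrays lay below all 5 untreated arrays. LPS gave the largest difference, -2.40 ± 0.25 or 5.29-fold lower (adjusted p = 3.59e-08), followed by TSG-6 with HA at -1.64 ± 0.25 (adjusted p = 0.000115). The other differences were -1.20 with TNFa, -1.24 with HA and -1.05 with TSG-6. Within the culture sets the LPS difference was -2.05 in set a and -2.68 in set b. Leaving out replicate 2 of TNFa, or replicate 2 of HA, ended those calls (-0.82, adjusted p = 0.401, and -0.71, adjusted p = 1.0). The HA call also ended without untreated replicate 1 (adjusted p = 0.0559), and the TSG-6 call without any 1 of 6 arrays (untreated 1, 2, 3 and 5 and both TSG-6 arrays).

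Cldn5 in knockout-labelled arrays was between -0.83 and 0.26 throughout, with differences of 0.20 after TNFa and -0.13 after LPS, neither past the threshold. The genotypes' responses differed by 2.27 ± 0.31 for LPS (adjusted p = 3.23e-05) and 1.39 ± 0.31 for TNFa (adjusted p = 0.0171). Without the high-18S arrays these were 1.72 (adjusted p = 0.0849) and 1.11 (adjusted p = 0.339), and without TNFa replicate 2 the latter was 1.02 (adjusted p = 0.509). Quantile normalization ended both, at 1.00 for LPS (adjusted p = 0.988) and 0.88 for TNFa (adjusted p = 0.349). The knockout-labelled values started lower, and centred values cannot show whether a further fall was measurable there.

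The other junction genes with the smallest adjusted p were Ptprb, Robo4 and Esam. Ptprb was 6.53, 6.48, 6.16, 5.92 and 5.85 untreated, 5.27 and 4.64 with TNFa, and 4.94 and 4.75 with LPS, so no arrays overlapped. Its differences were -1.24 with TNFa and -1.35 with LPS (adjusted p = 0.00588 for LPS). The LPS call ended without either LPS array (adjusted p = 0.083 and 0.193), and the TNFa call without TNFa replicate 2 (-0.92, adjusted p = 0.448). Robo4 (-0.65 with LPS, adjusted p = 0.316) and Esam (-0.39 with TNFa in knockout-labelled cultures, adjusted p = 0.557) did not pass.

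Cdh5 and Emcn, the defining junction and glycocalyx genes, did not pass in any treatment contrast. Cdh5 was 4.81, 4.70, 4.79, 4.47 and 4.47 untreated and 4.54 and 4.34 with LPS, and Emcn was 4.14, 4.20, 4.08, 4.22 and 4.18 untreated and 4.15 and 4.15 with LPS. Their SE in the fit over all arrays was large (0.85 and 1.72) because the knockout-labelled sets differ within each group. With the culture set as a block the LPS differences were -0.18 ± 0.21 for Cdh5 and -0.02 ± 0.29 for Emcn, neither past the threshold. In the same wild-type arrays the estimate after LPS was thus -0.01 for Emcn and -2.40 for Cldn5.

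The C-type lectin genes Clec1a and Clec14a, both expressed on endothelium, were lower after several treatments. Clec1a was 2.50, 2.37, 1.93, 2.36 and 2.44 in untreated wild-type arrays, 1.21 and 0.99 with LPS, 1.56 and 1.06 with HA, and 1.30 and 1.01 with TSG-6 and HA, all below the untreated arrays. Its differences were -1.22 ± 0.19 with LPS (adjusted p = 7.74e-05), -1.01 with HA and -1.16 with TSG-6 and HA. Untreated replicate 3 stood apart from the other 4 at 1.93. The HA call ended without HA replicate 2 (-0.76, adjusted p = 1.0), and the call for TSG-6 with HA ended without its replicate 2 (adjusted p = 0.0595). In knockout-labelled arrays Clec1a was between -0.52 and 0.53 throughout, below every wild-type array. Centred values cannot show whether a further fall was measurable there. The genotypes differed in the LPS response of Clec1a by 1.32 ± 0.23 (adjusted p = 0.00188), and without LPS replicate 2 of the wild-type cultures by 1.21 (adjusted p = 0.101). With quantile normalization this genotype difference was 0.68 (adjusted p = 1.0).

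Clec14a was 3.96, 4.15, 4.26, 3.91 and 3.88 untreated and 3.11 and 2.73 with TNFa in wild-type arrays, a difference of -1.11, which without TNFa replicate 2 was -0.92 (adjusted p = 0.0509). It was also lower in knockout-labelled cultures, where untreated arrays ranged from -0.17 to 0.33 (median 0.04). The TNFa arrays were -0.48, -0.62, -0.63 and -0.96, and the arrays with TSG-6 and HA -0.45, -0.84, -0.94 and -1.02. Neither group overlapped with untreated, and the differences were -0.75 ± 0.14 and -0.89 ± 0.14 (adjusted p = 2.47e-05 for TSG-6 with HA). The second probe set of Clec14a gave -0.24 and -0.25 and did not pass. Eng did not pass at first (0.30 ± 0.12 with TNFa in knockout-labelled cultures, adjusted p = 0.105) and did with the culture set as a block (adjusted p = 0.0094). Nos3 did not pass in any contrast.

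RAMP2 and RAMP3 are the proteins that turn the calcitonin-receptor-like receptor into an adrenomedullin receptor. Ramp2 was 1.85, 1.78, 2.19, 1.83 and 1.73 in untreated wild-type arrays, 0.55 and 0.74 with TNFa, 0.80 and 0.78 with LPS, and 0.95 and 1.17 with TSG-6 and HA. None of these overlapped with untreated, and the differences were -1.24, -1.09 and -0.81. Of the 7 wild-type TNFa calls, that of Ramp2 alone held without TNFa replicate 2, while its call for TSG-6 with HA ended without either array of that group (adjusted p = 0.085 and 0.055). In knockout-labelled cultures Ramp2 did not pass with TNFa or LPS and fell with TSG-6. Its untreated arrays ranged from -0.39 to 0.10 (median -0.18), the TSG-6 arrays were -1.42, -0.79 and -1.20, and the arrays with TSG-6 and HA -1.40, -1.30, -1.50 and -1.10. The differences were -0.98 and -1.17 ± 0.12 (adjusted p = 2.59e-08 for TSG-6 with HA), and the HA arrays were -0.08, -0.31, -0.19 and 0.11. The responses of Ramp2 differed between genotypes by 1.38 ± 0.21 for TNFa (adjusted p = 0.000125) and 0.97 ± 0.21 for LPS (adjusted p = 0.0255). The LPS difference ended without untreated replicate 3 or either LPS array of the wild-type cultures, or without LPS replicate 3 or 4 of the knockout-labelled cultures (adjusted p = 0.054 to 0.267). It also ended with the replicate block (0.97, adjusted p = 0.0857), without the high-18S arrays (1.07, adjusted p = 0.0953) and in a fit of only the groups compared (0.97, adjusted p = 0.0922). Quantile normalization ended both calls, at 0.89 for TNFa (adjusted p = 0.294) and 0.26 for LPS (adjusted p = 1.0).

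Ramp3 was 5.42, 5.48, 5.40, 4.81 and 4.75 in untreated wild-type arrays, 4.16 and 3.09 with TNFa, 4.02 and 3.93 with TSG-6, and 3.96 and 2.91 with TSG-6 and HA. No treated array of these 3 groups reached the untreated range. The differences were -1.55 with TNFa, -1.20 with TSG-6 and -1.74 ± 0.29 with TSG-6 and HA (adjusted p = 0.000356). The TNFa call and that for TSG-6 with HA ended without replicate 2 of their group (-1.01, adjusted p = 0.271, and -1.22, adjusted p = 0.26), and the TSG-6 call without any 1 of untreated replicates 1 to 3 or of the TSG-6 arrays (adjusted p = 0.11 to 0.687). Ednrb was 7.37, 7.37, 7.19, 6.39 and 6.37 untreated and 6.50 and 4.18 with TNFa, which overlapped in 1 array. Its difference of -1.60 ± 0.39 (adjusted p = 0.0133) was carried by TNFa replicate 2, since without that array it was -0.44 (adjusted p = 1.0). Calcrl did not pass in any treatment contrast.

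**Figure D4:**
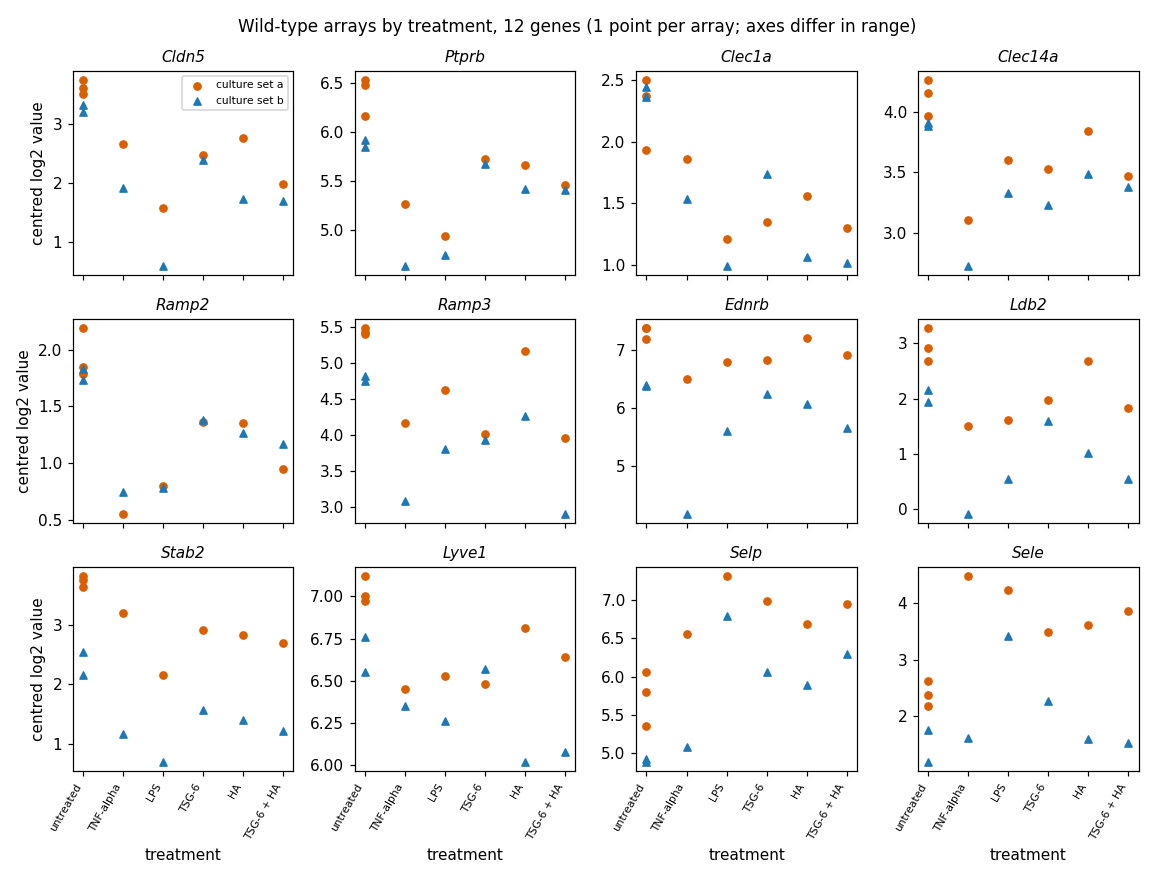
Centred log2 value (y axis, ranges differ) of 12 genes in the 15 wild-type arrays by treatment (x axis), with circles for culture set a and triangles for set b. Every treated point lies below every untreated point for Cldn5, Ptprb, Clec1a, Clec14a and Ramp2, and both LPS points lie above the untreated points for Selp and Sele.

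Ldb2, which encodes a partner of LIM-domain factors, was the member called in the most treatment contrasts, 7 of 10. In knockout-labelled cultures its 8 untreated arrays ranged from -0.03 to 0.54 (median 0.40), and all 19 treated arrays lay below, between -1.77 and -0.53. The TNFa arrays were -1.09, -1.34, -1.25 and -1.77, and the LPS arrays -1.20, -1.08, -1.07 and -1.31. The differences were -1.66 ± 0.27 with TNFa (adjusted p = 2.28e-05), -1.46 with LPS, -1.41 with TSG-6, -1.49 with TSG-6 and HA and -1.15 with HA. Unlike the junction genes Cdh5, Pecam1, Esam and Emcn, Ldb2 did not differ between the knockout-labelled sets (0.00). In wild-type cultures it was 2.69, 2.92, 3.28, 2.16 and 1.94 untreated, 1.51 and -0.09 with TNFa and 1.62 and 0.54 with LPS, with differences of -1.89 and -1.52. Without replicate 2 of the treated group these were -1.09 (adjusted p = 0.483) and -0.98 (adjusted p = 0.94), and the LPS call also ended without any 1 of untreated replicates 1 to 3 (adjusted p = 0.053 to 0.0774). Its responses did not pass the test of a genotype difference for either stimulus. The HA call in knockout-labelled cultures ended without any 1 of 8 arrays, untreated 3 to 7 and HA 1, 3 and 4 (adjusted p = 0.0503 to 0.167), and 1 of the other 2 probe sets of Ldb2 passed with the same sign in each knockout-labelled contrast.

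Erg fell in knockout-labelled cultures with TNFa, by 0.85 on the log2 scale (SE 0.29, adjusted p = 0.043). Its untreated arrays ranged from -0.83 to 0.58 and the TNFa arrays were -0.19, -0.53, -1.47 and -1.67, so the groups overlapped, and the second probe set gave 0.21. That call ended without any 1 of untreated replicates 1 to 4 or TNFa replicates 3 and 4 (adjusted p = 0.0624 to 0.208), and held with the culture set as a block (adjusted p = 2.35e-06). Lmo2, a scaffold protein of blood and endothelial factors, gave 0.89 ± 0.31 in the same contrast (adjusted p = 0.0519), and passed with the block (adjusted p = 0.000507). Sox18 (-0.70 ± 0.40 with LPS, adjusted p = 0.616) and the other SOX genes did not pass.

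Of the lymphatic and sinusoidal genes, Stab2 was the 1 that changed. It was 3.83, 3.64, 3.77, 2.54 and 2.15 in untreated wild-type arrays and 2.15 and 0.69 with LPS. The difference was -1.76 ± 0.45 (adjusted p = 0.0387). The groups met at 2.15 over both sets and were apart within them, with values of 2.15 against 3.64 to 3.83 in set a and 0.69 against 2.15 and 2.54 in set b. It ended without LPS replicate 2 (-1.03, adjusted p = 1.0) or any 1 of the 3 set a untreated arrays (adjusted p = 0.0971 to 0.105). With the culture set as a block, Stab2 passed after every treatment of wild-type cultures, with differences from -0.80 with TSG-6 to -1.61 with LPS. Lyve1 was 6.97, 7.12, 7.00, 6.76 and 6.55 untreated, 6.45 and 6.35 with TNFa, and 6.53 and 6.26 with LPS. Its differences were from -0.35 to -0.52 over the 5 treatments and did not pass, as for Flt4 and Mmrn1. All 6 genes of the class had negative estimates in each of the 5 wild-type contrasts, which share their untreated arrays. Over all 41 genes 30 to 34 estimates were negative. The untreated group held 3 set a and 2 set b arrays, and each treated group 1 of each. These genes were higher in untreated set a (median 0.75), so their signs mix the set gap with the treatment.

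After LPS in wild-type cultures 34 of the 41 estimates were negative. The highest were those of the selectins, and the other positive ones, of Sox7 (0.49), Tal1 (0.26), Calcrl (0.24), Tek (0.07) and Gja4 (0.07), did not pass. Selp was 5.36, 5.80, 6.06, 4.93 and 4.89 in untreated wild-type arrays and 7.31 and 6.79 with LPS, without overlap. The difference was 1.64 ± 0.39 or 3.12-fold (adjusted p = 0.0196). Its other 2 probe sets gave 0.75 and 1.57 and did not pass, and the call ended without either LPS array, or without untreated replicate 4 or 5 (adjusted p = 0.0528 to 0.541). With the culture set as a block Selp was 1.73 ± 0.26 higher with LPS (adjusted p = 2.06e-05), 1.20 with TSG-6 (adjusted p = 0.00681) and 1.30 with TSG-6 and HA (adjusted p = 0.00193).

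Sele was 2.18, 2.63, 2.38, 1.19 and 1.75 untreated, 4.23 and 3.41 with LPS, and 4.48 and 1.61 with TNFa. The LPS arrays lay above all untreated arrays, while with TNFa 1 array of the pair did. The difference of 1.79 ± 0.51 with LPS had an adjusted p of 0.0893, and with the culture set as a block it was 1.95 ± 0.28 (adjusted p = 1.39e-05). The TNFa difference, 1.02, passed with the block at 1.17 (adjusted p = 0.00705). Vwf did not pass. In knockout-labelled cultures Selp and Sele both gave 0.31 with LPS and did not pass. The genotype difference in the LPS response was -1.34 ± 0.48 for Selp (adjusted p = 0.956) and -1.49 ± 0.64 for Sele (adjusted p = 1.0), and with the block -1.42 (adjusted p = 0.0194) and -1.64 (adjusted p = 0.0112).

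By class, the LPS contrast in wild-type cultures left 2 of 10 junction genes, 1 of 7 other blood genes, 1 of 4 peptide receptors, 1 of 7 transcription regulators and 1 of 6 lymphatic genes lower, 1 of 3 activation genes higher, and none of the 4 receptors passed, against 0.456% of all genes lower and 0.737% higher. With TNFa, 2 of 10 junction genes, 1 of 7 other blood genes, 3 of 4 peptide receptors and 1 of 7 transcription regulators were lower, and no lymphatic, activation or receptor gene passed, against 1.15% of all genes lower. The class medians after TNFa were -1.39 for the peptide receptors and 0.41 for the activation genes. By arrays alone, both treated arrays lay below all 5 untreated arrays for 15 of the 41 with TNFa (7.1% of all genes), 17 with LPS (6.21%), 8 with TSG-6 (5.01%), 10 with HA (3.85%) and 14 with TSG-6 and HA (6.57%). Both LPS arrays lay above all untreated arrays for Selp and Sele alone of the 41, against 5.77% of all genes. That count is near the share of all genes and is no result about the 41. The test of a genotype difference in response passed for 2 of the 41 with TNFa, against 0.808% of all genes in either direction and 0.561% in the same direction, and for 3 with LPS, against 0.214% and 0.066%.

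Genes of the same pathways outside the 41 were counted from lists. Of 28 ligands and partners, TNFa raised 3 and lowered 1 in wild-type cultures and raised 3 and lowered 2 in knockout-labelled cultures, against 2.56% (wild-type) and 14% (knockout-labelled) of all genes called in either direction. The knockout-labelled count is near that share. Nrp2, a co-receptor for VEGF family members, rose by 1.64 ± 0.09 with TNFa in knockout-labelled cultures (adjusted p = 1.8e-15), Angptl4 by 1.60 ± 0.23 with LPS in wild-type cultures (adjusted p = 3.49e-05), and Vegfd, a lymphatic growth factor, fell by 1.05 with TNFa in knockout-labelled cultures. Of 39 other endothelial genes, TNFa lowered 4 in each genotype and raised 0 in wild-type and 1 in knockout-labelled cultures, against 1.15% (wild-type) and 7.32% (knockout-labelled) of all genes lower and 14% of all genes called either way in the knockout-labelled contrast. The knockout-labelled count is no result about this list. The genes called included Hey1 (-0.98) and Apold1 (-1.05) in wild-type cultures and Ecscr (1.50) in knockout-labelled cultures. In the untreated contrast 32 of the 39 were lower in the knockout-labelled group, against 16.3% of all genes. This list too was chosen with earlier results of that contrast known, and nothing is read from the count.

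Of 10 cytokine and adhesion genes that activated endothelium shares with fibroblasts, TNFa raised 7 and lowered 1 in wild-type cultures and raised 8 in knockout-labelled cultures, and LPS raised 5 in each. The shares of all genes called in either direction were 2.56% and 14% with TNFa and 1.19% and 1.79% with LPS, in wild-type and knockout-labelled cultures. Cxcl2, a neutrophil chemokine, was 4.31 ± 0.18 higher with LPS in wild-type cultures (adjusted p = 2.15e-18), Cxcl1 1.87 higher, and Csf3 3.51 higher with TNFa in knockout-labelled cultures. Both stimuli thus changed genes of this list in the knockout-labelled cultures too.

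Lists of other cell types were read in the same arrays. Of 12 fibroblast genes, 5 were higher and 5 lower in untreated knockout-labelled cultures, against 21.3% of all genes higher and 16.3% lower. Their mean ranged from -0.79 to -0.02 in wild-type arrays, -0.43 to 0.23 in set a and -0.06 to 0.41 in set b. Named after their values were seen, Prg4, the lubricant gene of the joint lining, lay at -4.78 to -2.35 in wild-type arrays and -0.31 to 1.39 in knockout-labelled arrays, and Lum at -4.56 to -1.53 against -0.32 to 0.81. In the other direction, Thy1 lay at 1.50 to 1.95 in wild-type arrays and -0.86 to 0.27 in knockout-labelled arrays. Col1a1 had medians of 0.99 and -0.33. These 2 genes too were named after their values were seen. Col1a2 was -0.86 (adjusted p = 2.51e-07) and Col3a1 -0.45 (adjusted p = 0.0468) in the untreated contrast. With TSG-6 and HA in knockout-labelled cultures 4 of the 12 were higher and 1 lower, against 9.94% of all genes called either way. Col3a1 was 1.36 and Col1a2 0.71 higher, and with TNFa Vim fell by 0.40 on the log2 scale. Pericyte and smooth muscle genes (12) averaged -0.31 to 0.23 in wild-type arrays, -0.13 to 0.38 in set a and -0.46 to 0.06 in set b. In the untreated knockout-labelled group 0 were higher and 2 lower, below the 37.6% of all genes called there. Medians in sets a and b were 1.13 and -0.40 for Myh11, 0.77 and -0.83 for Cnn1 and 0.04 and -1.02 for Tagln. These genes were named after their values were seen. Pdgfrb, Des, Kcnj8 and Abcc9 had the higher median in set b. Cspg4 (-0.77 with TNFa) and Acta2 (0.96 with TSG-6 and HA) passed in knockout-labelled cultures and Notch3 did not.

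Of 16 macrophage genes, Cd74 (1.29) and Csf1r (0.84) rose with TNFa in knockout-labelled cultures and Cd68 did not pass. These 2 calls are near the share of all genes called in that contrast, 14%, and are no result about the list. Blood lineage genes (8, with Gata1, Cd3e and Cpa3 at the smallest adjusted p) and epithelial genes (6, with Cdh1, Krt5 and Krt18) had no call in any treatment contrast. Among 7 muscle, fat and Schwann cell genes Actc1 (0.59 with TSG-6 and HA) passed, and S100b and Sox10 did not. The part of these cell types in the endothelial differences was not tested.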

How the data were processed

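Values were read from the deposited series matrix of 42 one-colour Affymetrix arrays. Per the submitters' processing notes the authors used RMA, with no version stated; the deposited values are on a log scale, taken here as log2 from their spread, with each probe set centred on its median over the arrays. Probe sets of a single gene were named from the platform annotation, and each gene was represented by its probe set of largest SD, avoiding those that followed the 18S signal. A linear model over the 12 groups was fitted to 18194 genes with limma (lmFit, eBayes), with Benjamini-Hochberg adjustment and a threshold of 0.05, and was tested on simulated data. Every adjusted p in the text is from such a limma fit. Precision is limited by the number of arrays, 2 to 8 per group.

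The members and gene lists were chosen with earlier results of these data known. Genes named by rule were, in each class, the 4 with the smallest adjusted p over the treatment contrasts (3 in the other lists). The rule added every member called in 2 or more treatment contrasts, and Cdh5, Emcn, Cldn5, Lyve1, Sele and Selp. Other genes, among them Pecam1, Stab1 and Gja4, were given values outside this rule. Ctla2a and Prox1 were given by array outside it, with their values known. Alternatives were a replicate block, a culture set block, leaving out arrays, other normalizations, other probe set choices and fits of only the groups compared.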

Additional observations from a re-analysis of the deposited data

Results flagged for a closer look

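Among 174 groups of 4 to 10 arrays looked at over 29 of the genes, 8 held an array far from the others, and chance gives about 1 group in 20. Clec1a in untreated wild-type replicate 3 was 1.93, against 2.36 to 2.50 in the other 4, and Ramp2 in the same array was 2.19, against 1.73 to 1.85. In knockout-labelled cultures with TNFa, Clec1a was 0.53 in replicate 2 (others -0.15 to -0.04), Ednrb -0.68 in replicate 4 (others -0.35 to -0.32) and Stab2 -0.09 in replicate 3 (others -0.53 to -0.52). With TSG-6 and HA, Ednrb was -0.69 in replicate 1 (others -0.25 to -0.19) and Tek -0.95 in replicate 4 (others -0.48 to -0.41). With LPS, Ptprb was -0.05 in replicate 1 (others -0.75 to -0.73).

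The genotypes' responses differed by the test of the difference itself for Cldn5 (1.39 with TNFa, 2.27 with LPS), Ramp2 (1.38 with TNFa, 0.97 with LPS) and Clec1a (1.32 with LPS). The count was 2 of the 41 genes for TNFa, against 0.808% of all genes, and 3 for LPS, against 0.214%. Without the high-18S arrays 1 was left for each stimulus, and with quantile normalization 0. The fall of Cldn5 with LPS was known when the genes were chosen.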

How the results depend on the processing

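No called result reversed its direction under any alternative run. Replicate numbers were not shown to pair the arrays: deviations of same-numbered arrays correlated above 0.1 in 34 of 55 same-numbered knockout-labelled pairs and 25 of 30 wild-type pairs. Each treated wild-type group has 2 arrays, whose deviations from the group mean are opposite. Between 2 such groups both replicates therefore give the same r, and those pairs are not independent. Treated wild-type groups, whose replicates 1 and 2 are also sets a and b, correlated at 0.405 to 0.686, and knockout-labelled TNFa with HA at 0.5 to 0.706. The block sets untreated arrays of set a against treated arrays of set b (knockout-labelled replicates 3 and 4, wild-type replicate 2), so its counts mix the set gap with the treatment. With a replicate block the counts of genes called, in the order TNFa, LPS, TSG-6, HA and TSG-6 with HA, were 18, 15, 18, 11 and 20 in knockout-labelled and 13, 13, 6, 4 and 8 in wild-type cultures, 38 for the untreated genotype contrast, and 7 and 4 for the genotype differences with TNFa and LPS. With the culture set as a block they were 7, 3, 4, 1 and 5, then 9, 11, 5, 3 and 8, with 7 and 6 genotype differences. Without the high-18S arrays the wild-type counts were 3 (TNFa), 4 (LPS) and 0 (HA), with 1 genotype difference for each stimulus. Quantile normalization left 0, 1, 0, 0 and 0 in wild-type cultures and no genotype difference (0 and 0). Fitting only the groups compared left 1 (TSG-6), 0 (HA) and 2 (TSG-6 with HA) in wild-type cultures, testing every probe set left 0 for TSG-6, and averaging probe sets left 0 for HA in knockout-labelled cultures. Subtracting each array's median, chosen after seeing the data, gave 2 for LPS in knockout-labelled cultures. The causes were not tested. Leaving out 1 array at a time gave 3 to 5, 1 to 2, 2 to 2, 0 to 1 and 3 to 3 calls in knockout-labelled cultures, 2 to 8, 3 to 7, 0 to 2, 0 to 2 and 1 to 5 in wild-type cultures, 37 to 37 for the untreated contrast, and 1 to 3 and 1 to 3 for the genotype differences.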
